A study of Rattus norvegicus with 21 samples.

Results

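The genes described here are proneural and Notch genes of the damaged retina: the Notch ligand Dll1, the receptor Notch1, the Notch target repressors Hes1 and Hes5, the proneural factor Neurog2, and the retinal progenitor and glial factors Sox2, Pax6, Lhx2 and Sox9. They were taken by name from the gene table, to ask whether glia take on progenitor features after rods are lost. All 9 of 9 were present among 19099 genes, and all 9 were among the 16006 genes that passed a filter on low counts and were tested. RNA of whole retina from Sprague Dawley rats was sequenced in 21 libraries, 3 in each of 7 groups. A control group was set beside animals kept for 6 months under blue (Blue), halogen (Hal) or LED light, each at a level labelled 200 or 1000, for which the sources give no unit. Where the labels write LED, the series text writes white. The age entry reads 8 months, and the light that control rats received is not described. Whether the 3 samples of a group came from separate animals is not stated. The p-values below therefore reflect how far the samples of a group spread, whatever the source of that spread.

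In the Notch pathway a ligand such as Dll1 on one cell binds a Notch receptor on its neighbour, and the released intracellular part of the receptor joins the DNA-binding protein Rbpj to switch on Hes and Hey repressors. These repressors hold down proneural bHLH genes such as Neurog2, which drive neuron formation. In the adult mammalian retina Sox2, Sox9, Lhx2, Hes1 and Notch1 are known from Müller glia, and Sox2 and Pax6 also from amacrine cells. Müller glia of fish re-enter the cell cycle and make neurons after injury, whereas those of mammals mostly answer with gliosis.

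Libraries held 30404774 to 35437448 counts, so that 3 counts corresponded to 0.0853 to 0.112 CPM (counts scaled to library total). The group labels were checked against cell type markers. Rod markers (16 genes) took 6.99 to 7.63% of the counts in control retina, 3.55 to 5.96% in Hal200 and 0.0752 to 0.302% in the other 5 light groups. Müller glia markers (22 genes) took 0.856 to 1.11% in control, 0.999 to 1.34% in Hal200 and 1.49 to 2.002% elsewhere, and amacrine markers 0.219 to 0.222%, 0.260 to 0.308% and 0.401 to 0.441%. In bulk tissue, fewer cells of a type and less RNA per cell cannot be told apart, and no value here assigns a transcript to glia. Lens markers stood apart in control replicate 3, Blue200 replicate 1 and LED200 replicate 1, at 0.565%, 1.11% and 0.472% of counts, and results that rest on these libraries are also given without them. Blue1000 replicates 1 and 3 held 0.262% and 0.144% lens markers, against 0.0128% in replicate 2, and were not among the 3 left out.

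Neurog2 and Hes5 moved in opposite directions in 5 of the 6 light groups: Neurog2, at only 4 to 19 counts per library in control retina, rose and Hes5 fell. In Hal200 neither was called, with Neurog2 at only 7 to 42 counts per library there. Sox2, Pax6, Lhx2 and Sox9 were 1.25- to 1.78-fold higher in the same 5 groups, but these calls were lost or changed sign when libraries were scaled to hold bipolar or Müller glia markers level, with 1 exception (Pax6 in LED1000 with bipolar markers level, 0.25, edgeR adjusted p = 0.047). Dll1 and Hes1 were not called in any comparison, and Notch1 was called in Blue1000 alone. Calls are adjusted p under 0.05 from the quasi-likelihood test of edgeR with Benjamini-Hochberg adjustment over all tested genes. Against control, 5 members were higher and 1 lower in each of 4 groups. Of all tested genes, 27.7% were called higher and 25.8% lower in Blue200 (53.5% in all), 27.3% and 26.8% in Hal1000 (54.0%), 26.5% and 25.7% in LED200 (52.2%), and 27.7% and 26.8% in LED1000 (54.5%). In Blue1000 6 members were higher and 1 lower, where 27.4% and 26.9% of genes were (54.3%). A count of 6 or 7 of 9 is thus not far from the background of each comparison, and is no finding about the members as a group. In Hal200 no member was called, against 11.9% of all genes (7.25% higher and 4.60% lower), and Sox2, Pax6, Sox9 and Dll1 (4 members, singled out by their values) had an unadjusted p under 0.05. DESeq2 called 1, Pax6. The 6 light groups together against control gave 5 higher and 1 lower, where 58.6% of genes were called (29.4% and 29.2%); all comparisons with control share its 3 libraries. By libraries alone, 5 members lay wholly above control and 1 wholly below in Blue200 (27.1% and 26.8% of all tested genes), LED200 (30.1% and 29.4%) and LED1000 (30.1% and 28.0%). In Hal1000 6 lay above and 1 below (32.2% and 30.9%), in Blue1000 6 above and 2 below (32% and 30.7%), and in Hal200 2 above and 2 below (15% and 10.9%). Over all 18 light libraries, Sox2 and Pax6 lay wholly above control and no member wholly below (9.99% and 7.67%). A test for any difference between the 7 groups called 6 members, where 54.5% of genes were called.

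**Figure D1:**
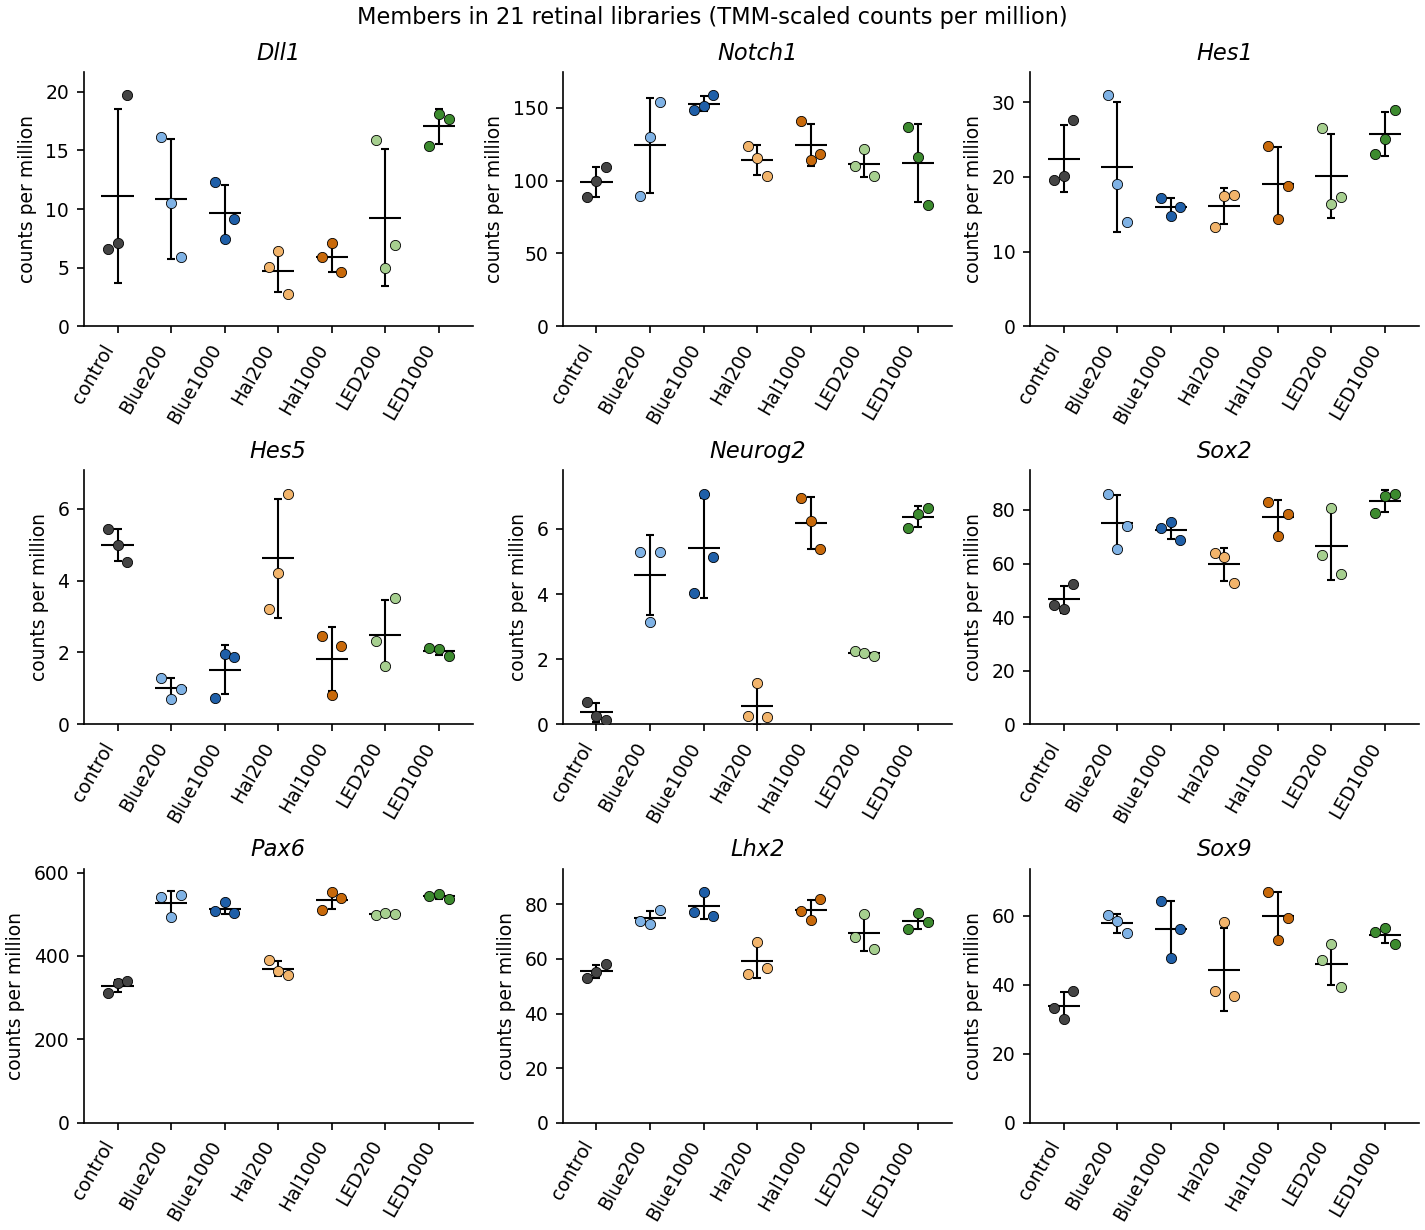
Each panel shows 1 member, with TMM-scaled CPM on the vertical axis from 0 and the 7 groups on the horizontal axis; points are the 3 libraries, and bars give the mean and SD (lower bars end at 0). Neurog2 is at most 1.26 in control and Hal200 libraries and at least 2.11 in all others, while the 3 control libraries of Hes5 lie above every library of the 5 groups other than Hal200.

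Per transcript length, the members differed widely in level in control retina. In FPKM (counts scaled to transcript length and library total) Pax6 was highest at a mean of 54.4, followed by Lhx2 at 18.1, Sox2 at 17.7, Hes1 at 11.6, Notch1 at 8.28, Sox9 at 7.37, Hes5 at 6.36 and Dll1 at 3.16. Neurog2 was lowest at 0.135 FPKM and reached at most 3.10 FPKM in any library, so its highest level was close to the control mean of Dll1 and under that of every other member.

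Dll1 spread widely within groups and was not called in any comparison. It measured 6.57, 7.12 and 19.7 CPM in the control libraries, 16.2, 10.5 and 5.91 in Blue200, 12.3, 7.44 and 9.18 in Blue1000, 5.07, 6.38 and 2.75 in Hal200, 5.87, 7.07 and 4.66 in Hal1000, 15.9, 4.94 and 6.93 in LED200, and 15.3, 18.1 and 17.6 in LED1000. The highest control, Blue200 and LED200 values are those of the 3 libraries with most lens RNA, whereas the 3 LED1000 libraries, with 0.0134 to 0.0170% lens markers, were all high. In Blue1000, replicates 1 and 3, with more lens RNA, were also above replicate 2, and the log2 fold change against control was -0.21 ± 0.47 (SE; edgeR adjusted p = 0.733) with all libraries, -0.42 without replicate 1 and -0.18 without replicate 3. LED1000 against control gave a log2 fold change of 0.61 ± 0.47 (SE; edgeR adjusted p = 0.289) with all libraries, and 1.32 ± 0.32 (adjusted p = 0.0018) without the 3 lens-rich ones; over all alternatives tried for this value the adjusted p ran from 0.0018 to 0.896. Leaving out control replicate 3 alone gave 1.30 (adjusted p = 0.028), and the sign turned with Müller glia markers held level (-0.21). Markers of iris, ciliary body and cornea (13 genes) took 0.0200 to 0.0216% of counts in LED1000 and 0.0045 to 0.0118% in control; their part in the Dll1 value was not tested. Hes1, a repressor known both as a Notch target and as a brake on neuron formation, was likewise high in the lens-rich libraries.

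**Figure D2:**
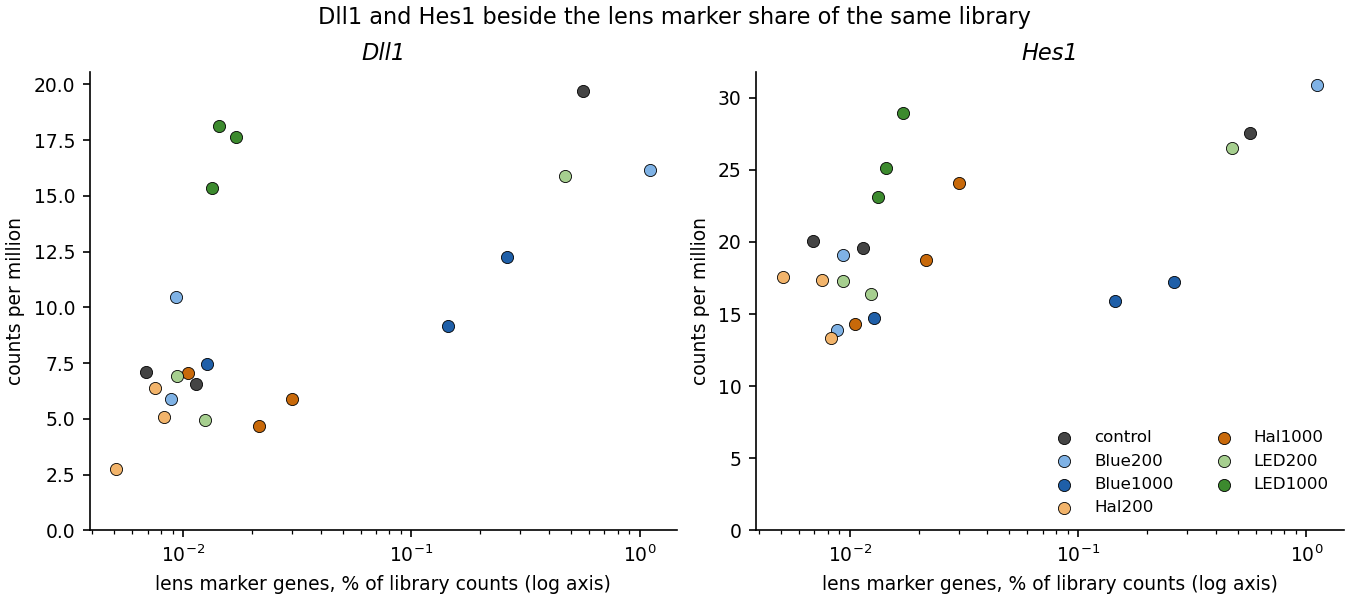
Dll1 (left) and Hes1 (right) in CPM are plotted for each of the 21 libraries against the share of counts from lens markers in the same library, on a log axis; colours mark the groups. Libraries at 0.472% or more hold 15.9 to 19.7 CPM of Dll1 and 26.5 to 30.9 of Hes1, and the 3 LED1000 libraries reach 15.3 to 18.1 and 23.1 to 28.9 at 0.0134 to 0.0170%.

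Notch1, the receptor, was highest in Blue1000. Its libraries measured 148.7, 151.0 and 158.5 CPM there, and 88.6, 99.7 and 109.3 in control. Blue200 libraries spread from 89.2 to 153.9, Hal200 from 103.0 to 124.0, Hal1000 from 114.1 to 140.7, LED200 from 103.3 to 121.6 and LED1000 from 83.5 to 136.6. Blue1000 lay above control and above Hal1000, the next group in order, without overlap; each of the other neighbours in that order overlapped. The log2 fold change of Blue1000 against control was 0.62 ± 0.17 (edgeR adjusted p = 0.0050), but it turned to -0.08 with bipolar and -0.13 with Müller glia markers held level. For the 6 light groups together it was 0.30 ± 0.13 and missed the threshold (adjusted p = 0.060); the call was gained without the lens-rich libraries (0.41, adjusted p = 0.015), without Blue200 replicate 1 (0.34, 0.012) or without LED1000 replicate 3 (0.33, 0.020), and the sign turned when bipolar markers were held level (-0.29, adjusted p = 0.030). Over all alternatives this adjusted p ran from 0.0011 to 0.263.

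The 2 Hes repressors behaved differently. Hes1 measured 19.6, 20.1 and 27.6 CPM in control, and its group means ran from 15.9 ± 1.25 (SD, n = 3) in Blue1000 to 25.7 ± 2.96 in LED1000, with every neighbour in that order overlapping. Light libraries spanned 13.3 to 30.9, and those of Blue1000 and Hal200 lay wholly under control. Hes5 measured 5.43, 4.99 and 4.53 CPM in control and 3.201, 4.22 and 6.42 in Hal200. It measured 2.31, 1.64 and 3.53 in LED200, 2.12, 2.10 and 1.91 in LED1000 and 2.45, 0.82 and 2.19 in Hal1000. In Blue1000 it was 0.73, 1.95 and 1.87, and in Blue200, the lowest group, 1.30, 0.72 and 0.99. Control and Hal200 overlapped, and control lay above each of the other 5 groups without overlap. Hes5 was 4.96-fold lower in Blue200 (log2 fold change -2.31 ± 0.42, edgeR adjusted p = 1.4e-04), 3.27-fold lower in Blue1000, 2.73-fold lower in Hal1000 and 2.44-fold lower in LED1000. In LED200 the value was -0.998 ± 0.40 with an edgeR adjusted p of 0.044. Of 33 alternatives 14 took that call away, among them leaving out any 1 of the 3 control libraries or LED200 replicate 1 or 2, with adjusted p from 8.8e-04 to 0.165 over all. Hes1 gave no call, at -0.21 ± 0.19 for all light groups (adjusted p = 0.366), yet it was called lower once bipolar (-0.79, adjusted p = 0.0045) or Müller glia markers (-0.85, adjusted p = 8.7e-06) were held level; over all alternatives its adjusted p ran from 8.7e-06 to 0.997.

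The promoters of both repressors are shown because Rbpj, the DNA-binding partner of Notch, recognises TGGGAA, and Hes proteins recognise the N-box CACNAG. The Neurog2 promoter is set beside them as that of a gene that Hes proteins are known to hold down. Each stretch is the 250 bases before the annotated start in the first entry found for the gene, from RefSeq (GRCr8). It is read 5′ to 3′ on the strand of the gene. The Hes1 window is chr11:84213046-84213295 on the minus strand, the Hes5 window chr5:170804327-170804576 on the plus strand and the Neurog2 window chr2:218766955-218767204 on the plus strand. The annotated Hes5 gene begins at chr5:170804511, so the end of its window lies within the gene, and another start would give other distances. Capitals mark these motifs, or the E-box that Hes proteins and others bind (CACGTG), on either strand.
Hes1: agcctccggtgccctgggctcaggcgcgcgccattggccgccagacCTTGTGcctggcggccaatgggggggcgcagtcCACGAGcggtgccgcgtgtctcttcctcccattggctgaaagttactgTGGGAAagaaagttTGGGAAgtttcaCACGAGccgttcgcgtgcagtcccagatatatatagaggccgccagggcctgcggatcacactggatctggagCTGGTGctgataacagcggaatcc
Hes5: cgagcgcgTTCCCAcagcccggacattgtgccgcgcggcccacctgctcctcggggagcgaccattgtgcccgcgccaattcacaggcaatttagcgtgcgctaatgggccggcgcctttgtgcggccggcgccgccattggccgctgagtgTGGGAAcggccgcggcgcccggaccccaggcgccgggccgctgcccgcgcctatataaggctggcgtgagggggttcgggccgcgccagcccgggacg
Neurog2: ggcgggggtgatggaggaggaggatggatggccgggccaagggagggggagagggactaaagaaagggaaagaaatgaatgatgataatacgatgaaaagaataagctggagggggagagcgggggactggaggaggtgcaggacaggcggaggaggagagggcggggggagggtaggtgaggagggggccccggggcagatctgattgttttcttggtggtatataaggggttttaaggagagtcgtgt
The Hes1 window held the Rbpj motif at 2 places, starting 123 and 109 bases before the start, and the N-box at 4. That of Hes5 held the Rbpj motif at 2 places, 242 and 98 bases before the start, and no N-box. The Neurog2 window held none of the 3 motifs, which says only that these letters are not in it. Of 33469 RefSeq promoter windows of this length, 22.1% held TGGGAA, 37.2% CACNAG and 5.59% CACGTG. Of the other members, Dll1 held 2 TGGGAA sites and Pax6 1, and Sox2, Lhx2 and Notch1 held none of that motif. The windows of Lhx2 (chr3:42535494-42535743) and Pax6 (chr3:112590346-112590595) lie wholly within the annotated genes, which begin at chr3:42523345 and chr3:112590034. For these 2 genes the window is not the stretch before the first base of the gene. Of the 9 members, 8 had an entry, and Sox9 is named only. Hes1 and Hes5 thus held 2 TGGGAA sites each, and Hes5 alone of the pair was called against control; a match is a description and no evidence of binding.

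Neurog2 showed the largest change of the 9 genes. Its control libraries measured 0.70, 0.26 and 0.14 CPM, from 4 to 19 counts each, and Hal200 0.25, 1.26 and 0.23. LED200 measured 2.25, 2.19 and 2.11, Blue200 5.30, 3.15 and 5.30, and Blue1000 4.03, 7.08 and 5.13. Hal1000 measured 6.95, 6.23 and 5.37, and LED1000 6.04, 6.44 and 6.65. Control and Hal200 overlapped, LED200 lay above both and below the remaining 4 groups without overlap, and those 4 overlapped from neighbour to neighbour. Neurog2 was 12.5-fold higher than control in Blue200 (log2 fold change 3.64 ± 0.54, edgeR adjusted p = 1.5e-05) and 14.8-fold higher in Blue1000. It was 16.9-fold higher in Hal1000, 17.4-fold in LED1000 and 5.96-fold in LED200 (2.58 ± 0.53, adjusted p = 5.0e-04). In Hal200, at 7 to 42 counts per library, the difference of 0.68 ± 0.56 was not called (adjusted p = 0.464). Of the control and Hal200 libraries, only control replicate 1 and Hal200 replicate 2 held more than 10 counts, the minimum of the filter. Neurog2 was thus tested through its counts in the other 5 groups, and a small difference between control and Hal200 could not be resolved. Between 29 and 150 of the 16006 tested genes had a higher fold change than Neurog2 in each of the 5 comparisons in which it rose. The size of these folds rests on few control counts: for all light groups the log2 fold change was 3.16 ± 0.48 (adjusted p = 1.4e-05), and 4.03 without control replicate 1. The rise was called under all 32 alternatives of that comparison, at 2.61 with bipolar markers and 2.44 with Müller glia markers held level. Markers of several other cell types moved with the same 5 groups. Rod markers took a lower share of counts there, as given above. Pigment epithelium markers (11 genes) took 0.0065 to 0.0231% of counts in control and 0.0076 to 0.0161% in Hal200, and 0.0508 to 0.163% in the other 5 groups, where 7 to 11 of the 11 were called higher, against 0 in Hal200. Rpe65, the isomerase of the visual cycle and a defining gene of that epithelium, measured 2.40 to 8.51 CPM in control, 1.24 to 5.43 in Hal200 and 26.5 to 108.4 elsewhere. Markers of oligodendrocytes and Schwann cells (10 genes, 9 tested) took 0.0051 to 0.0056% in control, 0.0054 to 0.0074% in Hal200 and 0.0074 to 0.0111% elsewhere, with 5 to 7 of 9 higher in those 5 groups and 2 in Hal200. Sox10, a factor of those glia, measured 0.26 to 0.74 CPM in control, 0.12 to 0.96 in Hal200 and 2.69 to 12.2 elsewhere. The part of each of these in the Neurog2 and Hes5 values was not tested.

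**Figure D3:**
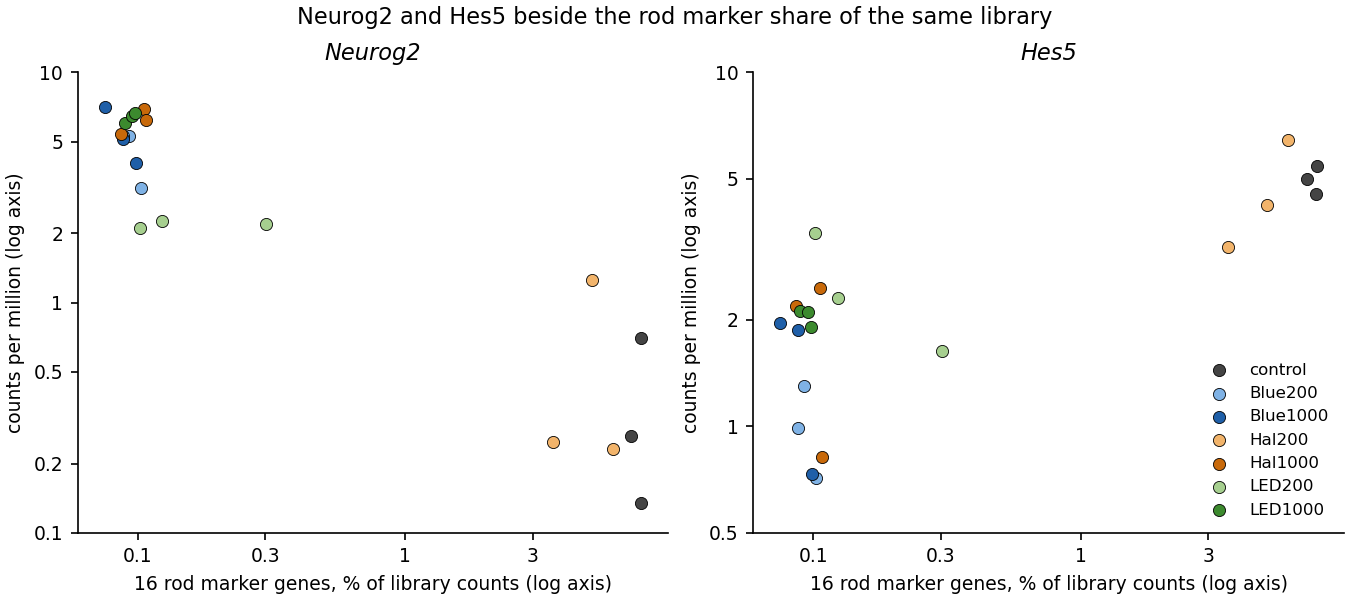
Neurog2 (left) and Hes5 (right) in CPM, on log axes, are plotted for each library against the share of counts from 16 rod markers; colours mark the groups. The 15 libraries with at most 0.302% rod markers hold 2.11 to 7.08 CPM of Neurog2 and 0.72 to 3.53 of Hes5, and the 6 libraries with 3.55% or more hold 0.14 to 1.26 and 3.201 to 6.42.

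The glial and progenitor factors rose by less. Pax6, a homeobox factor of progenitors that amacrine and ganglion cells keep, measured 311.9, 334.9 and 339.3 CPM in control, 355.1 to 389.2 in Hal200 and 493.9 to 554.4 in the other 5 groups. Sox2, an SRY-box factor of progenitors, Müller glia and some amacrine cells, measured 44.5, 43.0 and 52.5 in control, 52.7 to 64.0 in Hal200 and 55.9 to 86.1 elsewhere. All light libraries lay above control for both genes, and neighbours among the 5 groups other than Hal200 overlapped; Hal200 lay under all of these for Pax6. Lhx2, a LIM homeobox factor that holds Müller glia in their mature state in mice, measured 53.1, 55.2 and 58.1 CPM in control, 54.5 to 66.1 in Hal200 and 63.8 to 84.7 elsewhere. Sox9, another SRY-box factor of Müller glia, measured 33.1, 29.9 and 38.2 in control, 36.6 to 58.1 in Hal200 and 39.4 to 66.9 elsewhere. Hal200 overlapped control for both, and the other 5 groups lay above control. Within Hal200, replicate 2 was highest for Neurog2, Lhx2 and Sox9, at a rod share of 4.97% between those of its group mates.

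For all light groups the log2 fold changes were 0.63 ± 0.10 for Sox2, 0.59 ± 0.05 for Pax6, 0.38 ± 0.06 for Lhx2 and 0.64 ± 0.12 for Sox9, with edgeR adjusted p of 2.3e-05, 3.5e-09, 4.7e-05 and 1.9e-04. In LED200 the rise of Sox9 (0.45 ± 0.15, adjusted p = 0.020) was no longer called when any 1 of control or LED200 replicates 1 and 2 was left out. None of the 4 kept its call over all light groups when libraries were scaled to marker genes (13 bipolar or 22 Müller glia genes, no member among them). With bipolar markers held level the values were 0.04, 0.01, -0.20 and 0.06, and with Müller glia markers level -0.02, -0.08, -0.28 and -0.01. These scalings shifted the median of all tested genes by -0.58 and -0.66 on the log2 scale, and the share of called genes that were higher went from 50.2% to 7.11% and 4.38%. On the bipolar scale Neurog2 alone was called higher, and Hes5, Hes1, Notch1 and Dll1 were lower. On the Müller glia scale Neurog2 was again the only member called higher, and Hes5, Hes1 and Dll1 were lower.

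**Figure D4:**
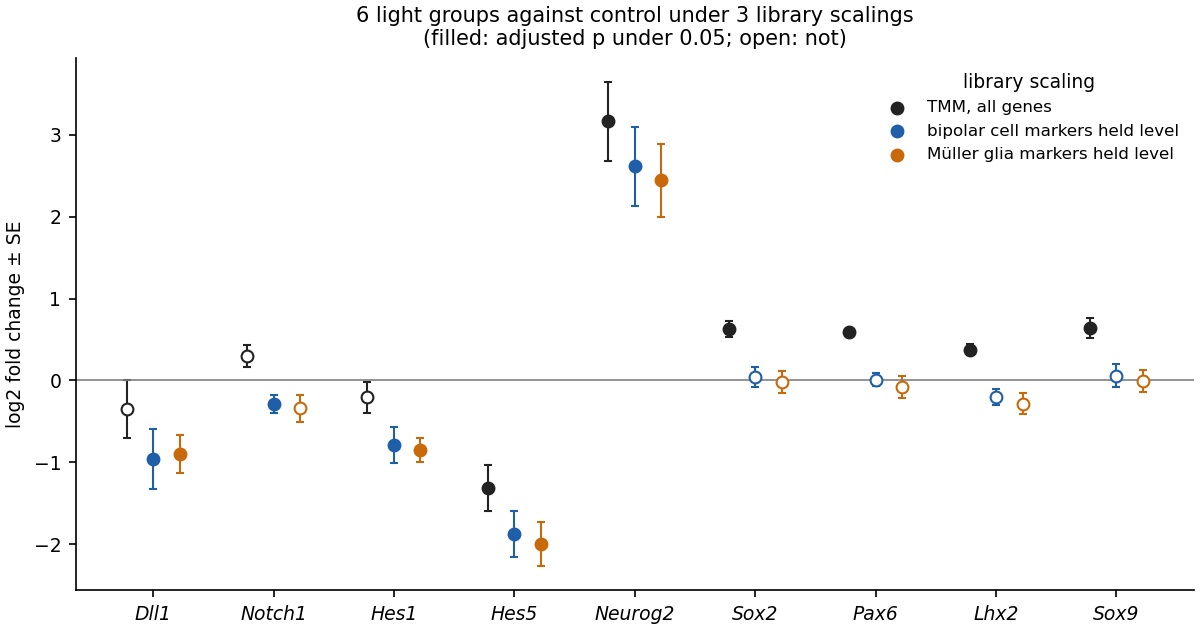
Log2 fold changes with SE of the 9 members for the 6 light groups against control are shown under TMM scaling (black) and with bipolar cell markers (blue) or Müller glia markers (orange) held level; filled points are called. Neurog2 stays at 2.44 to 3.16 and Hes5 at -1.99 to -1.31, whereas Sox2, Pax6, Lhx2 and Sox9, of which Lhx2 changes sign under both and the other 3 with Müller glia markers level, move from 0.38 to 0.64 down to values between -0.28 and 0.06.

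Among the light sources, members were called between levels under halogen light and not under blue or LED light. Hal1000 against Hal200 gave 5 members higher and 1 lower, where 34.9% of genes were called (16.5% higher and 18.4% lower). By libraries alone 4 lay wholly above Hal200 and 1 below (26.3% and 26.1% of genes). Neurog2 was 10.5-fold higher in Hal1000 (log2 fold change 3.39 ± 0.51, edgeR adjusted p = 3.9e-05) and reached 4.66 without Hal200 replicate 2. Hes5 was 2.53-fold lower (-1.34 ± 0.41, adjusted p = 0.015); it lost the call without Hal200 replicate 3 (adjusted p = 0.1004) or Hal1000 replicate 2 (adjusted p = 0.076), in a range over alternatives of 4.0e-04 to 0.1004. Pax6 (0.54), Lhx2 (0.40), Sox9 (0.43) and Sox2 (0.37) were higher as well, but all 4 lost the call under both marker scalings, with negative values for Sox2 and Lhx2 under both and for Pax6 and Sox9 with Müller glia markers level. Sox2 and Sox9 also lost it without Hal200 replicate 3 or Hal1000 replicate 1 or 3, and Sox9 without Hal200 replicate 1. No member was called between Blue1000 and Blue200 by edgeR, where 0.0125% of genes were called, all of them lower (0% higher), and no member had an unadjusted p under 0.05; DESeq2 called none of them either. No member was free of overlap between these levels either (5.16% of genes above and 6.29% below). None was called between LED1000 and LED200, where 0.0687% of genes were called (0.05% higher and 0.0187% lower) and 2 members, Neurog2 and Sox2, had an unadjusted p under 0.05. DESeq2 called Neurog2 alone, for which all 3 LED1000 libraries lay above all 3 LED200 libraries, at 1.54 ± 0.46 (edgeR adjusted p = 0.216; 0.027 by DESeq2, and 0.0055 to 0.777 over all alternatives). Pax6 and Sox9 were also free of overlap between the LED levels, higher in LED1000, as were 8.80% of all genes, with 12.3% lower.

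The difference of level effects was tested directly, as the change from 200 to 1000 under halogen light minus the mean change under blue and LED light. In this test 3 members were higher and 1 lower, where 24.8% of genes were called (11.6% higher and 13.2% lower). The difference was 2.50 ± 0.58 for Neurog2 (edgeR adjusted p = 0.0038), 0.50 ± 0.07 for Pax6 (5.4e-05), 0.31 ± 0.10 for Lhx2 (0.027) and -1.50 ± 0.50 for Hes5 (0.033). Those of Pax6 and Lhx2 lost the call under both marker scalings, where Lhx2 (-0.22 and -0.15) and, with bipolar markers level, Pax6 (-0.03) changed sign. The value of Hes5 lost its call without any 1 of 6 libraries (Blue200, Hal1000 or LED200 replicate 2, Hal200 replicate 3, Blue1000 replicate 2 or 3), and that of Lhx2 without replicate 1 or 3 of Hal200 or Hal1000. The Neurog2 difference stayed called under every alternative tried.

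The rest of the pathway was read from lists that include the members and were drawn up with earlier results known, for the 6 light groups against control. Of all tested genes, 29.4% were higher and 29.2% lower there, and each count is to be read against these shares. With bipolar markers level 4.49% were higher and 58.6% lower, and with Müller glia markers level 2.72% and 59.3%, so that few higher and many lower calls under these scalings are the background. Of 7 Notch ligands tested, 3 were higher and 2 lower. Jag1, a ligand of the Jagged type, fell from 64.4 to 91.7 CPM in control to 11.9 to 19.7 in the 5 groups with few rod markers, with 38.7 to 59.7 in Hal200 between them. All light libraries lay under control, and the log2 fold change was -2.01 ± 0.12 (edgeR adjusted p = 3.0e-11; -0.60 and adjusted p = 0.033 in Hal200). Of 4 receptors 3 were higher, among them Notch2 at 0.67 ± 0.16, which fell to 0.07 with bipolar and 0.06 with Müller glia markers level and was then not called. Under bipolar and Müller glia scaling no ligand was higher and 3 were lower. Of 24 genes that process or modify Notch, 7 were higher and 7 lower, close to the background, with Dtx1, a regulator of Notch turnover, at 0.62 ± 0.06 and at 0.05 and -0.05 under the marker scalings. Of 9 genes of the nuclear complex 1 was higher and 6 lower. The coactivators Maml1 (-0.86 ± 0.08) and Ep300 (-0.81 ± 0.12) fell, and Rbpj gave -0.16 ± 0.06 (edgeR adjusted p = 0.020), a sign that turned on the FPKM scale (0.05) and a call lost without control replicate 1 or 2. Of 12 genes listed as target repressors 4 were higher and Hes5 alone was lower. This list also holds Id1, Id2, Id3, Id4, Hes6 and Nrarp. Whether Notch drives each listed gene in these retinas was not tested, so the count is no measure of Notch activity. Hey1, a Notch target of the Hey family, was at 0.51 ± 0.09, but at -0.07 and -0.15 with bipolar and Müller glia markers level. Of the target repressors 8 were lower and none higher under either scaling, and of the nuclear complex 7 lower.

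Of 14 proneural and neurogenic genes tested, 9 were higher and 1 lower, with a median log2 fold change of 0.76 beside 0.04 over all tested genes. The one that fell was Neurod1 (-1.64 ± 0.08), a bHLH factor that adult photoreceptors also make. With bipolar markers level 6 were higher and 2 lower, and with Müller glia markers level 2 and 2. Of 25 progenitor genes 13 were higher and 7 lower, beside 29.4% and 29.2% of all tested genes, and 3 and 9 with bipolar or 2 and 9 with Müller glia markers level. Nes, the intermediate filament nestin, rose by 1.25 ± 0.22, from 2.84 to 3.21 CPM in control to 5.13 to 12.1 outside Hal200. Rax (-0.93 ± 0.08) and Msi1 (-1.25 ± 0.08), both known also from photoreceptors, fell, as did Lin28a (-4.65 ± 0.28), an RNA-binding factor used in reprogramming.

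Of 27 cell cycle genes tested, 6 were higher and 7 lower, with a median of 0.00, and under either marker scaling 1 was higher and 14 were lower. Ccnd1, the cyclin of entry into G1, rose by 1.15 ± 0.32 (adjusted p = 0.0052), or 1.87 without control replicate 3, and lost its call with bipolar markers level (0.53). Ccna2 (-2.83 ± 0.20) and Ccnd2 (-1.99 ± 0.17) fell, although in Hal200 Ccnd2 was at 0.77 ± 0.25 (edgeR adjusted p = 0.057), with its 3 libraries above control and no call. Mki67, a marker of dividing cells, was at -0.19 ± 0.55 (edgeR adjusted p = 0.781), with 0.15 to 1.42 CPM in control and 0.10 to 1.63 in light libraries. Of 22 gliosis genes 14 were higher and 3 lower, with a median of 0.97, beside 29.4% and 29.2% of all tested genes; these counts were 9 and 5 with bipolar and 10 and 5 with Müller glia markers level. Gfap, the filament of reactive glia, rose by 2.30 ± 0.24 over all light groups and by 2.01 ± 0.27 in Hal200 (edgeR adjusted p = 9.9e-04), where Neurog2 was not called. In Hal200, 11 gliosis genes and 11 of 22 Müller glia markers were higher, beside 6 of 14 proneural and neurogenic genes, where 7.25% of all tested genes were higher and 4.60% lower. With Müller glia markers level the genes called in Hal200 fell from 1897 to 106 (0.475% of tested genes higher), and these counts were 8, 2 and 0. With bipolar markers level (1.55% higher) they were 10, 2 and 0. The mean log2 CPM of the 22 Müller glia markers itself ran from 7.27 to 7.83 over control libraries and from 7.42 to 7.81 over Hal200. The part of this spread within groups in the fall from 1897 to 106 was not tested. Of 10 factors of glial quiescence 6 were higher and 2 lower. Prdm1, a repressor best known from young photoreceptors, fell by 4.09 on the log2 scale. Tgfbr2, Nfib and Nfia were called higher in Blue200, Hal1000, LED200 and LED1000 under TMM scaling, and not in Hal200.

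**Figure D5:**
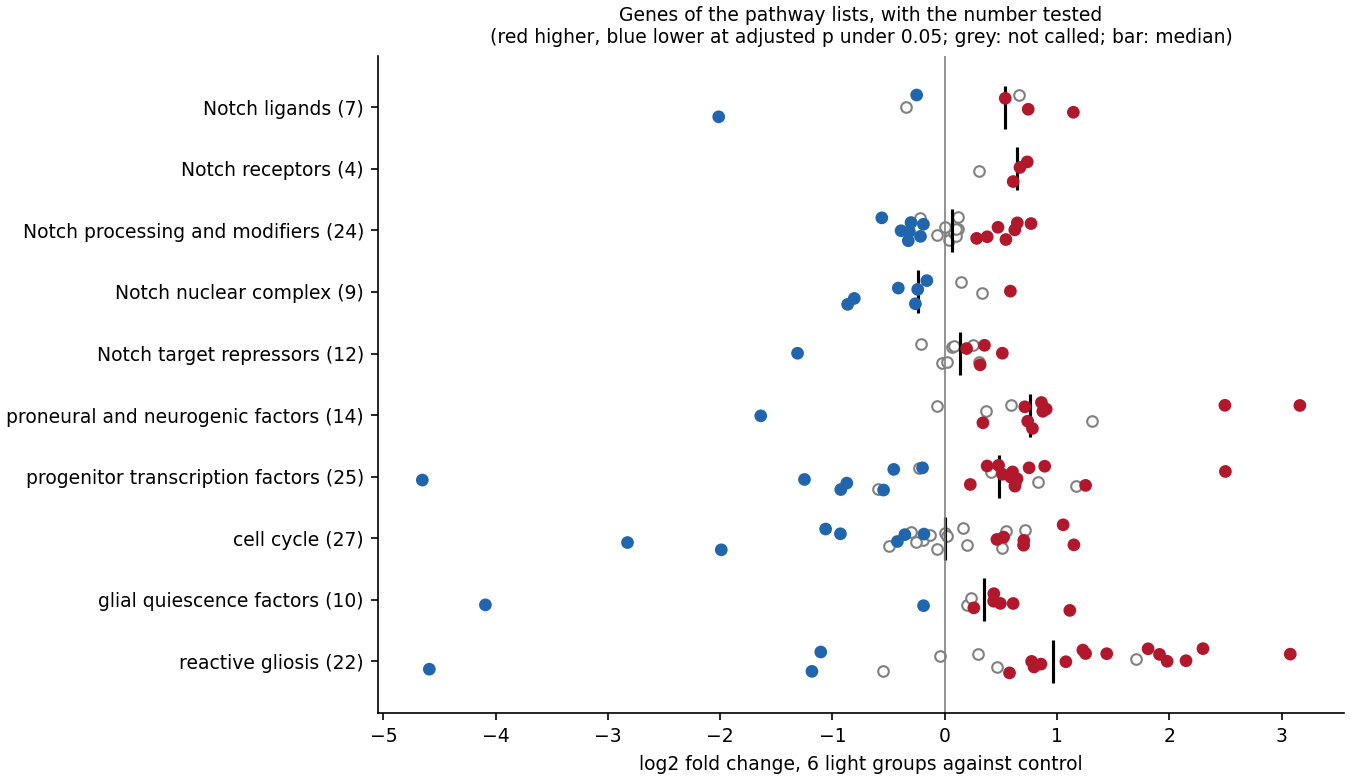
Each point is a tested gene of 1 of 10 lists, placed by its log2 fold change of the 6 light groups against control under TMM scaling; red and blue points were called higher and lower, grey were not, and bars are list medians. Lists rest on TMM scaling, under which 50.2% of called genes were higher. Neurog2 (3.16) stands at the right of the proneural list and Jag1 (-2.01) at the left of the ligands, while the cell cycle list is spread about 0.

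Among the members, Pearson correlations of log2 CPM over the 21 libraries, which share group, scaling and rod content, reached 0.91 for Neurog2 with Pax6 and with Lhx2, 0.86 for Sox2 with Pax6 and -0.77 for Hes5 with Pax6. Hes1 and Dll1 formed a pair of their own at 0.70, with Hes1 at 0.07 to Neurog2. Among 13405 other genes, those most like Neurog2 were Nkd1, an inhibitor of Wnt signalling (r = 0.94), Pde7b (0.93) and Aif1l (0.93). Pax6 was closest to Bhlhe22, a bHLH factor of amacrine and bipolar subtypes (0.98). Lhx2 was closest to Sox8 (0.93), Sox2 to Rassf10 (0.96), Sox9 to Hspa2 (0.90) and Hes5 to Kank3 (0.90). Dll1 was closest to the leptin receptor gene Lepr (0.94), Hes1 to Col9a2 (0.86) and Notch1 to the Wnt receptor gene Fzd5 (0.93).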

How the data were processed

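Gene counts, as deposited by the authors, are whole numbers for 21 libraries, beside a second deposited table in FPKM. Tested on the files, all 19099 deposited FPKM rows equal the count divided by the library total and 1 length per gene (tolerance 1e-06), so they are no second measurement. Per the labels, the library kit was VAHTS Universal V6. Per the submitters' processing notes, R 3.2.0 was used. Aligner, counter, strand setting and genome build: not given in the sources used here, so reads of overlapping or antisense genes may be mixed.

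Counts were fitted with edgeR 4.0.16 in R 4.3.3: filterByExpr (minimum count 10, total 15), TMM scaling, all 7 groups in 1 quasi-likelihood fit, Benjamini-Hochberg adjustment over all tested genes, and calls at 0.05. CPM is TMM-scaled. DESeq2 1.42.0 and limma 3.58.1 (voom, or log2 of FPKM plus 1 or 0.1) were alternatives, as were library factors that hold bipolar or Müller glia markers level, a replicate block and leaving out each library. The fit was also run on simulated counts in which few genes were changed, in Hal1000 alone, with the same spread setting for every gene. In the data most tested genes were called in most comparisons with control. The simulation therefore does not test the scaling or the calls of genes with few counts. The 6 comparisons with control share its 3 libraries. Members and lists were chosen with earlier results of these data known, as were the libraries left out. Other genes were named by rule: up to 4 a list by adjusted p plus preset companions, of which those the text turns on are printed, and the 3 most correlated genes a member, of which the closest is. No count column belonged to another series.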

Additional observations from a re-analysis of the deposited data

Results flagged for a closer look

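Halogen light gave a change from level 200 to 1000 that differed from the mean change under blue and LED light for 4 members, by the test of that difference in edgeR. For Neurog2 the difference was 2.50 on the log2 scale, with level effects of 3.39 under halogen, 0.24 under blue and 1.54 under LED light. For Pax6 it was 0.50 (0.54, -0.04 and 0.12), for Lhx2 0.31 (0.40, 0.08 and 0.09) and for Hes5 -1.50 (-1.34, 0.60 and -0.29). Hal200 kept 3.55 to 5.96% rod markers, and each of the other 5 light groups at most 0.302%; the part of this in the differences was not tested.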

How the results depend on the processing

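Of 3248 member values under 33 alternatives, 3071 kept their side of the threshold and, where called, their direction, 60 lost the call, 68 gained it and 49 changed sign while called before or after, all 49 with bipolar or Müller glia markers held level. Of the 3071, 92 changed sign without a call on either side, 32 of them under these 2 scalings. These scalings assume that the marker cells kept their RNA, which was not tested, and the cause of each change below was not tested. The Neurog2 rise and Hes5 fall over all light groups held under all 32 alternatives, at 1.22 to 4.03 and -1.99 to -0.90 on the log2 scale. Neurog2 rests on 4 to 19 counts per control library, which limits the precision of its folds.

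With bipolar markers level, Lhx2 turned to -0.18 in Blue200, -0.18 in Blue1000, -0.19 in Hal1000, -0.44 in LED200, -0.062 in LED1000, -0.20 for all light, -0.032 for Hal1000 against Hal200 and -0.22 in the difference of level effects. Sox2 turned to -0.064 in Blue1000, -0.25 in LED200 and -0.047 for Hal1000 against Hal200, and Pax6 to -0.049 in Blue1000, -0.16 in LED200 and -0.028 in the difference of level effects. Notch1 turned to -0.076 in Blue1000, -0.36 in Hal1000, -0.60 in LED200 and -0.29 for all light, Sox9 to -0.32 in LED200, and Hey1 to -0.067 for all light.

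With Müller glia markers level, values in Blue200, Blue1000, LED200, LED1000, all light and Hal1000 against Hal200 were -0.13, -0.11, -0.10, -0.10, -0.023 and -0.23 for Sox2, -0.14, -0.12, -0.030, -0.23, -0.076 and -0.070 for Pax6, -0.38, -0.25, -0.31, -0.54, -0.28 and -0.19 for Lhx2, and -0.032, -0.013, -0.17, -0.24, -0.0071 and -0.14 for Sox9. In Hal1000 Pax6 was at -6.5e-05 and Lhx2 at -0.21, and in the difference of level effects Lhx2 was at -0.15. Notch1 turned to -0.13 in Blue1000 and -0.76 in LED1000, Hes1 to -0.72 in LED1000, and Dtx1 to -0.053 and Hey1 to -0.15 for all light. On the log2 FPKM scale Rbpj was at 0.050 with a pseudocount of 1 and 0.054 with 0.1.

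Members called went from 6 to 2 in Blue200, 7 to 3 in Blue1000 and 6 to 3 in LED1000 with bipolar markers level, and to 4 in Blue1000 with Müller glia markers level. In Hal200 they went from 0 to 1 with DESeq2, bipolar markers level or no lens-rich libraries, to 2 on both FPKM scales, to 3 with voom and to 0 to 2 with 1 library left out. For Hal1000 against Hal200 they went from 6 to 2 under both marker scalings and 3 to 6 with 1 library left out. For LED1000 against LED200 they went from 0 to 1 with DESeq2, the compared groups only, FPKM plus 1 or no lens-rich libraries, to 3 with voom and to 4 with bipolar markers level. In the difference of level effects they went from 4 to 2 with Müller glia markers level or without Blue1000 replicate 3, Hal1000 replicate 3 and LED1000 replicate 2, and 2 to 5 with 1 library left out.

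All genes called in Hal200 went from 1897 to 0 in the compared groups only, 4750 with voom, and 3602 and 106 with bipolar and Müller glia markers level. They went to 3028 without lens-rich libraries and 402 to 3184 with 1 library left out. A second set of 3 libraries was also left out, namely Blue1000 replicate 3, Hal1000 replicate 3 and LED1000 replicate 2. Without this second set 993 genes were called in Hal200. Between the blue levels the genes called went from 2 to 17 with DESeq2, 64 with voom, and 1 on both FPKM scales and with bipolar markers level. They went to 0 in the compared groups only, with Müller glia markers level and without the second set, and 0 to 9 with 1 left out. Between the LED levels the genes called went from 11 to 171 with DESeq2, 1158 with voom and 2680 with bipolar markers level. They went to 66 without lens-rich libraries, 0 without the second set and 3 to 44 with 1 left out.

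Replicate numbers gave no sign of pairing: over 63 same-numbered pairs the mean correlation of deviations was -0.0036 (-0.373 to 0.402, 9 over 0.1). Over 126 pairs of different number it was 0.0024 (-0.396 to 0.487, 19 over 0.1), and 6 of 21 libraries were closest to their own number. With 3 libraries a group, this cannot exclude that same-numbered samples were handled together. With the replicate number as a block, genes called between the LED levels went from 11 to 3, and no count of members called changed by over 1.5 times. The fit to compared groups only was not run for all light, the difference of level effects or any difference between groups.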
